A study of Danio rerio with 12 samples.

Results

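In macrophages sorted from zebrafish larvae after tail amputation, 117 genes were raised by more than 1 log2 unit (a fold change of 2) over intact larvae in every one of 3 replicate experiments. Treatment with beclomethasone, a synthetic glucocorticoid, left less than 50% of the mean log2 rise of 39 of these genes, and these 39 wound-raised, dampened genes are described here. They were chosen on the measured values: log2 CPM (CPM being the read count scaled to the size of the library) had to be more than 1 higher in amputated (Amp) than in intact (Control) larvae in replicates 1, 2 and 3, and the mean difference between amputated, beclomethasone-treated (Amp+Beclo) larvae and Control had to be below 50% of the mean difference between Amp and Control. The choice was made among the 20214 genes whose mean count reached 10, out of 31962 in the files. Hence the rise in Amp and the low mean in Amp+Beclo are properties of the choice and are given as a description, whereas the libraries of beclomethasone-treated, intact larvae (Beclo) played no part in it. il1b, tnfa, MMP9, mmp13a and irg1l were left out of the choice. Of these 5, tnfa alone met both conditions, and il1b rose in every replicate but kept 73.3% of its rise. The other 76 raised genes kept 50% of their rise or more.

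The study asked which part of the transcriptional response of macrophages to wounding is sensitive to a glucocorticoid. Larvae of the Tg(mpeg1.4:mCherry-F) line, in which an mpeg1 promoter drives a red fluorescent protein in macrophages, were pretreated at 3 days post fertilization (dpf) for 2 h with 25 µM beclomethasone (Amp+Beclo and Beclo) or with 0.05% DMSO as vehicle (Amp and Control), and the treatment went on afterwards. The tails of the Amp+Beclo and Amp larvae were partly amputated, and those of the Beclo and Control larvae were left intact. At 4 h post amputation (hpa), 100 to 150 whole larvae per sample were pooled and dissociated in the presence of the transcription inhibitor actinomycin D, and red cells were sorted, so the macrophages came from the entire body and not only from the wound. Each of the 4 groups had 3 samples, 1 from each replicate experiment, and the 12 libraries had 9488569 to 18865019 reads on genes.

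The sorted cells were checked against marker genes. All 27 macrophage markers had reads, and their summed level ranged from 5157 to 18928 CPM in Amp+Beclo, from 7612 to 27548 CPM in Amp, from 11855 to 19119 CPM in Beclo and from 5559 to 19272 CPM in Control. Transcripts of other tissues were abundant as well. The summed level of 27 skeletal muscle markers ranged from 29486 to 90485 CPM in Amp+Beclo, from 49973 to 158591 CPM in Amp, from 44991 to 62602 CPM in Beclo and from 20441 to 79148 CPM in Control, which was above the macrophage sum in every group. The 24 epidermis markers summed to 14318 to 21177 CPM in Amp+Beclo and 12090 to 40121 CPM in Amp. Their sum was 17391 to 27516 CPM in Beclo and 13509 to 21503 CPM in Control. None of the 28 muscle, 24 epidermis or 14 neutrophil markers in the files was at 0 in all libraries. In such bulk samples, fewer cells of a type and less RNA per cell cannot be told apart.

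Macrophages at a wound release cytokines and chemokines that call in further leukocytes and act on the cells that close the wound. Glucocorticoids bind the glucocorticoid receptor, a transcription factor that activates some genes and lowers the expression of others, among them many targets of the inflammatory factors NF-κB and AP-1. The 39 genes fall into 7 groups by role: 5 genes of secreted signals and hormones, 5 of immune membrane proteins, 4 of the endosome, lysosome and secretory path, 5 of enzymes and channels, 9 of actin, myosin, troponin and tropomyosin proteins, 4 other named genes and 7 with no descriptive name. This grouping was made after the members were known. In the map of all 39 genes by library, the groups differ in which amputated library is highest. Replicate 3 of Amp was the highest of the 12 libraries for 8 of the 9 muscle-protein genes, against 8 of the 30 other members, and replicate 2 of Amp was the highest for 1 of the 9, against 20 of the 30. The Control library of the same replicate stood out likewise: replicate 3 was the highest Control library for 9 of 9 muscle-protein genes and replicate 2 for 17 of the 30 others.

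**Figure D1:**
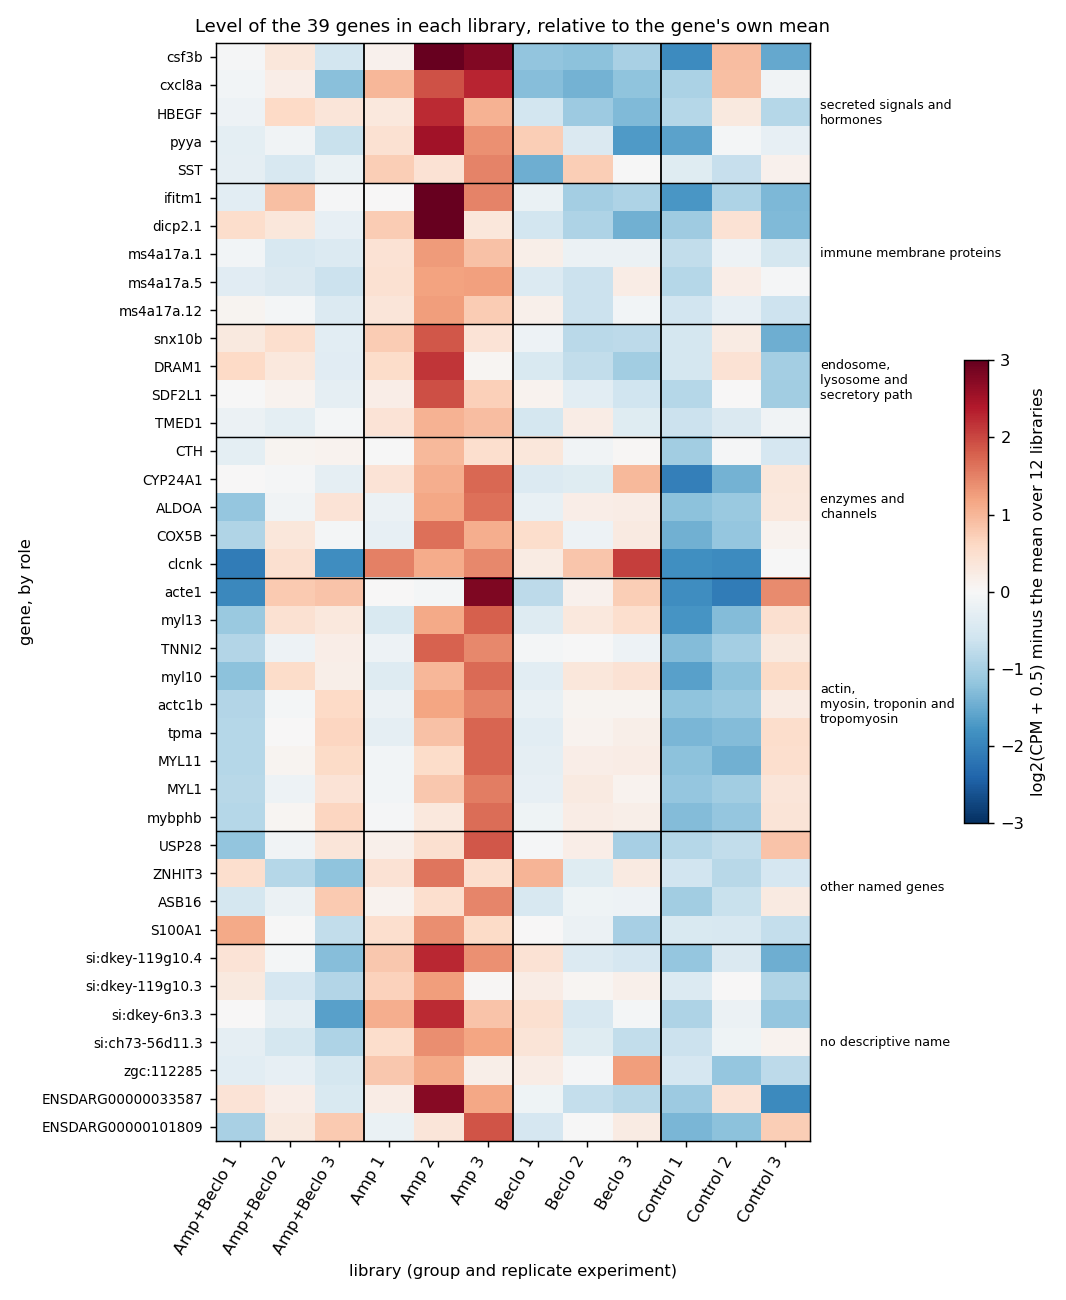
Level of each of the 39 genes (rows, grouped by role) in each of the 12 libraries (columns: Amp+Beclo, Amp, Beclo and Control, replicates 1 to 3), as log2(CPM + 0.5) minus the mean of that gene over the 12 libraries, with red above and blue below that mean. The genes of secreted signals, immune membrane proteins and the secretory path are mostly darkest in replicate 2 of Amp, and the muscle-protein genes in replicate 3 of Amp.

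Over the 39 genes, the median of the mean difference was 1.60 log2 between Amp and Control (medians of 1.31, 2.19 and 1.32 in replicates 1, 2 and 3), against -0.11 over all 20214 genes. Between Amp+Beclo and Control it was 0.57 (0.67, 0.40 and 0.06 by replicate), against 0.00 over all genes, and 5 members lay below Control on average. Without replicate 2 this median was 0.32. Between Amp+Beclo and Amp it was -1.14 (-0.72, -1.53 and -1.26), against 0.13 over all genes. Thus replicate 1 showed the smallest difference between Amp+Beclo and Amp. Of the 39 genes, 34 were lower in Amp+Beclo than in Amp in all 3 replicates, and the exceptions, each lower in 2 of 3, were acte1, S100A1, ZNHIT3, DRAM1 and ENSDARG00000033587. Over all genes 13.1% were lower in all 3 replicates. The 3 Amp+Beclo libraries all lay below the 3 Amp libraries for 14 of the 39 genes, where 7.06% of all genes do so, and the 3 Amp libraries all lay above the 3 Control libraries for 21, where 4.02% of all genes do so. The 3 Beclo libraries all lay below the 3 Amp libraries for 18 members, where 3.69% of all genes do so. The first 2 counts follow from the choice, and the last is favoured by it, since Amp was chosen to be high.

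**Figure D2:**
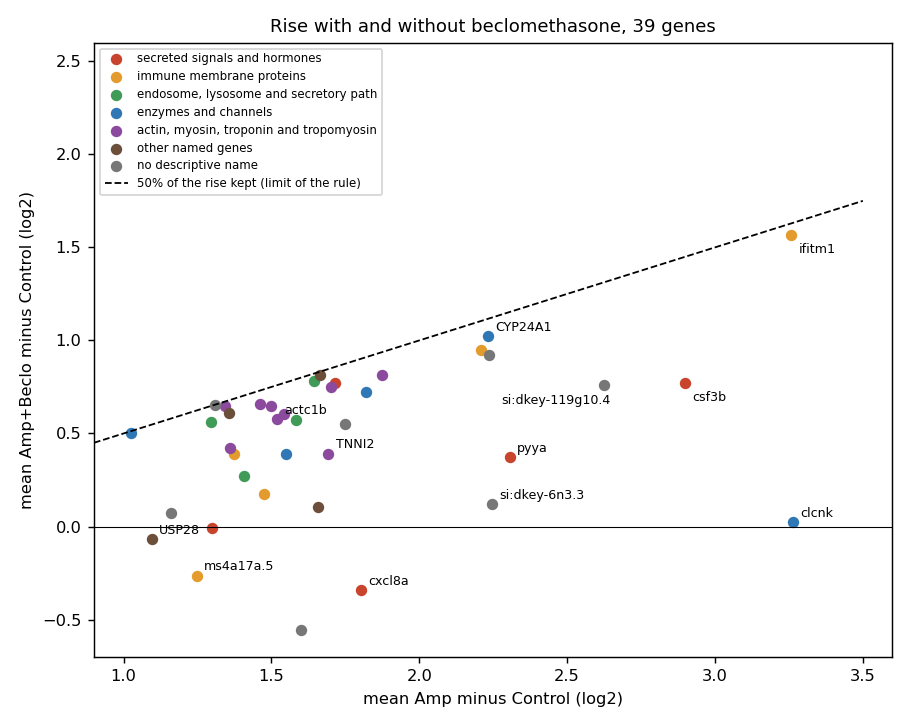
Mean difference between Amp+Beclo and Control (vertical axis, log2) against the mean difference between Amp and Control (horizontal axis, log2) for the 39 genes, each the mean over 3 replicates, coloured by role, with some genes labelled. The dashed line marks 50% of the rise kept, the limit of the rule. The genes reach from ifitm1 just under the line to clcnk near 0 and cxcl8a below 0, and the muscle-protein genes cluster at a rise of about 1.34 to 1.87.

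Among the secreted signals, the cytokine gene csf3b and the chemokine gene cxcl8a had the highest levels and the most negative mean differences between Amp+Beclo and Amp. csf3b encodes a granulocyte colony-stimulating factor, the cytokine that drives production and release of neutrophils. Its level was 50.2, 65.4 and 35.15 CPM in Amp+Beclo, 55.8, 488 and 356 CPM in Amp, 22.2, 21.5 and 25.9 CPM in Beclo and 13.5, 98.2 and 17.3 CPM in Control. In replicates 2 and 3 csf3b was thus far below Amp in Amp+Beclo, whereas in replicate 1 Amp itself was low and the 2 libraries were close, so that the groups overlapped. The group means were 50.2 ± 15.1 CPM in Amp+Beclo, 300.1 ± 222 CPM in Amp, 23.2 ± 2.38 CPM in Beclo and 43.0 ± 47.8 CPM in Control (SD, n = 3 each). cxcl8a, also called il8, encodes a chemokine that attracts neutrophils. Its level was 14.3, 17.8 and 6.10 CPM in Amp+Beclo, 30.8, 58.8 and 76.9 CPM in Amp, 6.04, 5.45 and 6.36 CPM in Beclo and 7.73, 29.2 and 14.2 CPM in Control. Here every Amp+Beclo library lay below every Amp library, and the mean of Amp+Beclo lay below that of Control, since replicates 2 and 3 of Amp+Beclo were under their Control. The log2 differences between Amp+Beclo and Amp were -1.10, -1.71 and -3.62 for cxcl8a and -0.15, -2.90 and -3.33 for csf3b in replicates 1, 2 and 3.

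HBEGF encodes heparin-binding EGF-like growth factor, a membrane-anchored ligand of the epidermal growth factor receptor that takes part in wound closure. Its level was 8.14, 14.2 and 11.9 CPM in Amp+Beclo, 11.51, 44.99 and 19.3 CPM in Amp, 6.04, 4.02 and 3.36 CPM in Beclo and 4.87, 11.4 and 4.81 CPM in Control. The highest Amp+Beclo library of HBEGF lay above the lowest Amp library, and it kept 44.9% of its rise, more than csf3b with 26.6%. The other members of the group were peptide hormone genes of endocrine cells and neurons at low levels. pyya, the gene of peptide YY, had 2.26, 2.65 and 1.64 CPM in Amp+Beclo, 4.14, 18.8 and 8.2 CPM in Amp, 5.13, 2.01 and 0.545 CPM in Beclo and 0.609, 2.75 and 2.36 CPM in Control. SST, the symbol given for a somatostatin gene, had 2.58, 2.16 and 2.73 CPM in Amp+Beclo, 5.67, 4.52 and 10.0 CPM in Amp, 0.843, 5.70 and 3.18 CPM in Beclo and 2.39, 1.80 and 3.58 CPM in Control. For these 2 genes every Amp+Beclo library lay below every Amp library, as for 7.06% of all genes, while Beclo ranged widely around Control. Both genes were chosen on their Amp and Amp+Beclo values. Each rested on few reads, with a lowest count of 6 for pyya and 12 for SST.

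**Figure D3:**
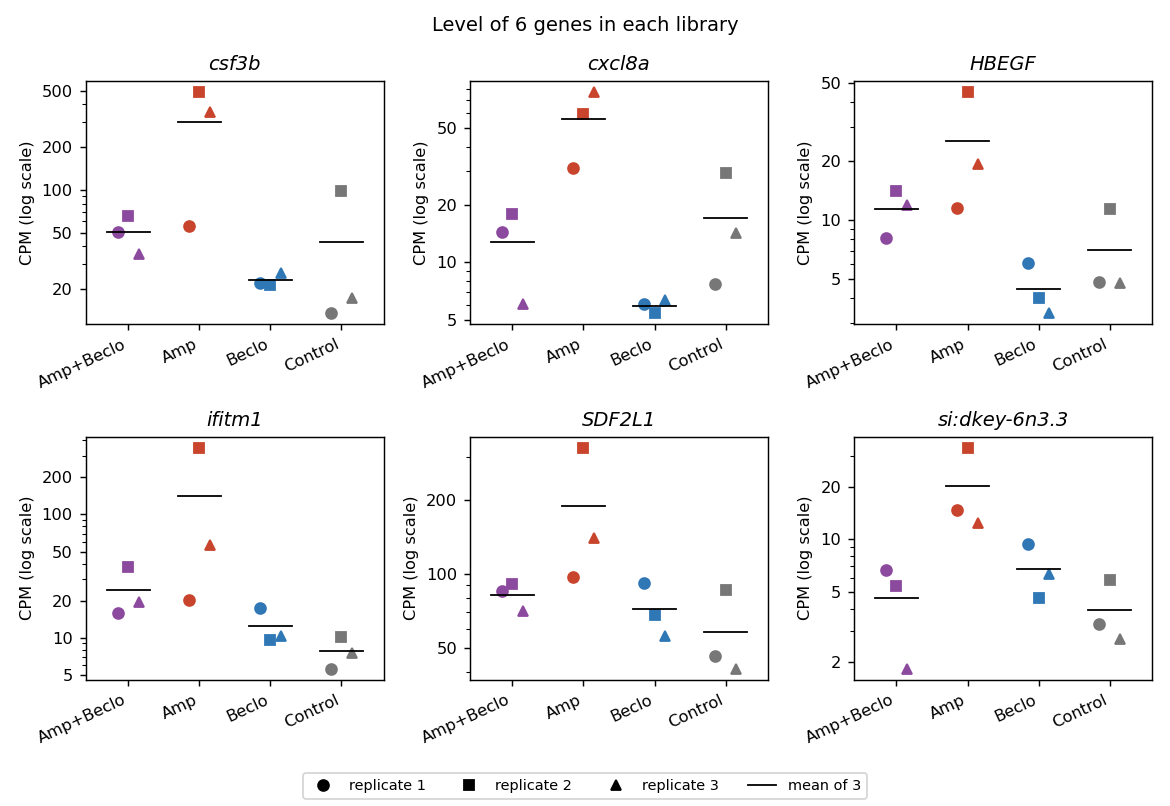
CPM (log scale) of csf3b, cxcl8a, HBEGF, ifitm1, SDF2L1 and si:dkey-6n3.3 in the 12 libraries, by group from left to right Amp+Beclo, Amp, Beclo and Control. Symbols mark the replicate and lines the mean of 3. Replicate 2 is the highest Control library of all 6 genes, and cxcl8a, SDF2L1 and si:dkey-6n3.3 have no Amp+Beclo library as high as the lowest Amp library.

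The list of cytokines and chemokines held 55 genes with enough reads to be tested in Amp against Control, csf3b and cxcl8a among them (edgeR quasi-likelihood test, Benjamini-Hochberg adjusted p below 0.05 and a fold change above 2). Of the 53 that are not members, 5 rose and none fell in Amp, where 1.14% of all genes tested rose and 1.32% fell. Without replicate 3, or without pairing the replicates, no gene of this list passed, where 2 of 21309 and 0 of 22107 genes passed in all. The 5 were il6 (log2 fold change 3.01, adjusted p = 8.6e-10 by edgeR), ccl34b.8 (2.44, 1.7e-05), il11b (2.26, 8.8e-04), ccl19a.1 (2.23, 0.041) and m17 (2.05, 4.2e-05). In Amp+Beclo against Amp, no gene of this list passed the test in either direction, where 0.299% of all genes tested passed. The log2 fold change there was -2.27 for ccl19a.1 and -0.93 for il6 but -0.04 for m17, a cytokine gene of the interleukin-6 family, with adjusted p = 0.35, 0.59 and 0.99 by edgeR, beside -2.12 for cxcl8a and -2.19 for csf3b. For the 47 genes of the list whose mean count reached 10, Amp+Beclo minus Amp had a median of -0.01, -0.93 and -0.11 log2 in replicates 1, 2 and 3.

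The genes of immune membrane proteins were led by ifitm1, the gene of an interferon-induced transmembrane protein of a family that restricts entry of viruses in mammals. Its level was 15.9, 37.7 and 19.6 CPM in Amp+Beclo, 20.24, 348 and 56.4 CPM in Amp, 17.4, 9.55 and 10.27 CPM in Beclo and 5.62, 10.2 and 7.495 CPM in Control. Replicate 2 of Amp stood far above every other library of ifitm1, and replicate 1 of Amp lay within the range of Amp+Beclo. ifitm1 stayed above Control in every replicate of Amp+Beclo, by 1.47, 1.87 and 1.37 log2, and its share of the rise kept, 48.1%, was among the highest. dicp2.1 belongs to a multigene family of fish immunoglobulin-domain receptors, whose close copies make its reads uncertain. It had 7.49, 6.49 and 4.19 CPM in Amp+Beclo, 8.90, 50.6 and 6.49 CPM in Amp, 3.302, 2.43 and 1.54 CPM in Beclo and 2.16, 6.95 and 1.71 CPM in Control. As with ifitm1, replicate 2 of Amp stood above the other libraries of dicp2.1, and the ranges of Amp+Beclo and Amp overlapped.

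The remaining 3 genes of this group, ms4a17a.1, ms4a17a.5 and ms4a17a.12, encode proteins of the family of 4-pass membrane proteins that includes CD20 in mammals. ms4a17a.5 had 4.35, 4.03 and 3.46 CPM in Amp+Beclo, against 7.94, 13.8 and 13.8 CPM in Amp, and ms4a17a.1 had 2.66, 1.87 and 2.00 CPM in Amp+Beclo, against 3.97, 7.54 and 5.63 CPM in Amp. ms4a17a.12 had 4.35, 3.83 and 2.91 CPM in Amp+Beclo, against 5.39, 10.32 and 7.22 CPM in Amp. In each of the 3 genes every Amp+Beclo library lay below every Amp library, as for 7.06% of all genes, and the rule chose them on these libraries. Amp+Beclo was also close to Control, which had 2.91, 6.61 and 5.54 CPM of ms4a17a.5. The 3 genes are neighbours: all 14 ms4a17a genes of the RefSeq table (assembly GRCz12tu) lie on 1 chromosome with no protein-coding gene of another name between the first and the last. Of the 9 other ms4a17a genes in the files, 9 were higher in Amp than in Control on average and 4 in all 3 replicates, and 7 were lower in Amp+Beclo than in Amp on average and 4 in all 3 replicates. Over all genes, 19.7% were higher in Amp than in Control in all 3 replicates, and 56.6% were lower in Amp on average. In Amp+Beclo against Amp, 13.1% of all genes were lower in all 3 replicates and 43.7% were lower on average. The abundant ms4a17a.8 was not a member, with Amp minus Control at 0.13, 0.98 and 1.67 log2 and Amp+Beclo minus Amp at 0.25, -1.23 and -1.77. ms4a17a.9 rose in every replicate by 1.78, 1.54 and 2.56 log2 but its mean difference between Amp+Beclo and Amp was only -0.44 log2, short of the rule. Reads of such close copies may be assigned to the wrong copy, so single genes of the cluster are uncertain.

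The 4 genes of the endosome, lysosome and secretory path had the same high replicate 2. SDF2L1, which encodes a component of chaperone complexes in the endoplasmic reticulum (ER), had 85.1, 91.3 and 70.8 CPM in Amp+Beclo, 97.7, 327 and 141 CPM in Amp, 91.8, 68.3 and 56.2 CPM in Beclo and 46.6, 86.5 and 41.2 CPM in Control. Every Amp+Beclo library of SDF2L1 lay below every Amp library and within or just above the range of Control. TMED1, the gene of a cargo receptor between ER and Golgi, had 1.21, 1.081 and 1.37 CPM in Amp+Beclo, against 2.098, 3.48 and 3.18 CPM in Amp, likewise without overlap but at a low level. DRAM1 encodes a lysosomal membrane protein that promotes autophagy and takes part in defence against mycobacteria in zebrafish. It had 54.7, 45.5 and 28.3 CPM in Amp+Beclo, 53.7, 162 and 37.7 CPM in Amp, 26.3, 21.6 and 17.4 CPM in Beclo and 25.1, 49.0 and 17.8 CPM in Control, so that its difference rested mostly on replicate 2, and replicate 1 of Amp+Beclo was as high as that of Amp. snx10b, the gene of a sorting nexin of endosomes, had 13.2, 15.5 and 8.56 CPM in Amp+Beclo, against 18.5, 40.1 and 14.4 CPM in Amp, with overlap. Of the ER stress list, 46 genes were tested in Amp against Control, and 3 rose, SDF2L1, slc7a11 and dnajc3a, while DDIT3 fell. Of all genes tested, 1.14% rose and 1.32% fell, and SDF2L1 was chosen for its rise. Without replicate 2 or without replicate 3 none rose, where 53 of 21486 and 2 of 21309 genes rose in all. In Amp+Beclo against Amp, 0 of 46 passed the test in either direction, where 0.299% of all genes tested passed. The median log2 difference of the list there was -0.05, -0.31 and 0.05 in replicates 1, 2 and 3. The larger differences of SDF2L1, at -0.20, -1.84 and -0.99, were those of a gene chosen for them.

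Among the enzymes and channels, clcnk had the largest mean difference between Amp+Beclo and Amp, -3.24 log2, and, with ifitm1, the largest mean rise in Amp of all members, 3.26 log2 each. It encodes a chloride channel of the kidney type. Its level was 0.0806, 2.95 and 0.182 CPM in Amp+Beclo, 6.52, 4.87 and 6.24 CPM in Amp, 2.46, 3.94 and 9.90 CPM in Beclo and 0.187, 0.172 and 1.96 CPM in Control, so that every Amp+Beclo library lay below every Amp library. The Amp+Beclo libraries held 1, 30 and 2 reads of clcnk, against 115, 42 and 51 reads in Amp. The ratio of Amp+Beclo over Amp was 0.0124 in replicate 1 (95% exact counting interval 0.00031 to 0.0702), 0.606 in replicate 2 (0.366 to 0.991) and 0.0292 in replicate 3 (0.00344 to 0.111), and these intervals cover counting error only. Amplified reads without molecular identifiers are not independent molecules. clcnk was the 1 member of 39 that passed the test in Amp+Beclo against Amp (log2 fold change -3.50, SE 0.85, adjusted p = 0.022 by edgeR), where 0.0414% of all genes tested were lower. With at least 10 counts required in every library it could not be tested. Without replicate 1 or without replicate 3 no member passed, where 1 of 20230 and 13 of 20872 genes passed in all. Without replicate 2 clcnk passed, at -5.52. Yet Beclo alone was above Control in all 3 replicates of clcnk, by 2.92, 3.63 and 2.25 log2.

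CYP24A1 encodes the mitochondrial hydroxylase that inactivates vitamin D. It had 9.18, 8.95 and 7.47 CPM in Amp+Beclo, 12.4, 20.17 and 31.3 CPM in Amp, 6.75, 7.04 and 18.4 CPM in Beclo and 1.83, 3.09 and 11.81 CPM in Control, with no Amp+Beclo library as high as the lowest Amp library. CTH, the gene of cystathionine gamma-lyase, which makes cysteine, was the member with the smallest rise and had 38.7, 49.8 and 50.7 CPM in Amp+Beclo, against 46.7, 92.5 and 67.4 CPM in Amp. It was also among the 3 members nearest to the limit of the share kept, at 48.9%. ALDOA encodes the glycolytic aldolase of muscle and other tissues and had 193, 399 and 576 CPM in Amp+Beclo, 381, 963 and 1353 CPM in Amp, 369.8, 498 and 500.1 CPM in Beclo and 184, 199 and 539 CPM in Control. Its libraries were ordered like those of the muscle-protein genes, highest in replicate 3 of Amp and of Control. Of the 55 other glycolysis genes tested, 7 rose in Amp against Control and none fell (adjusted p below 0.05 by edgeR and a fold change above 2). Of all genes tested, 1.14% rose and 1.32% fell. None of the 55 passed the test in Amp+Beclo against Amp, where 0.299% of all genes tested passed. Without replicate 2 or 3 no glycolysis gene rose, and without replicate 1 the count with ALDOA was 16. Over all genes, 53 of 21486 rose without replicate 2, 2 of 21309 without replicate 3 and 910 of 20322 without replicate 1. COX5B encodes a subunit of cytochrome c oxidase and had 1.93, 5.31 and 3.92 CPM in Amp+Beclo, 3.34, 13.8 and 9.18 CPM in Amp, 6.04, 3.603 and 4.998 CPM in Beclo and 1.17, 1.55 and 4.40 CPM in Control. It belongs to a list of 100 nuclear genes of the respiratory chain, of which 8 rose in Amp, COX5B included. That count was 65 without replicate 1 and 0 without replicate 2 or 3, and the counts over all genes moved likewise, as given for glycolysis. Amp+Beclo minus Amp had a median over that list of 0.07, -1.43 and -1.52 log2 in replicates 1, 2 and 3, against 0.02, 0.16 and 0.19 over all genes. In replicate 1, 67 of the 100 genes were above 0, whereas 95 were at or below 0 in replicate 2 and 98 in replicate 3. None of the 100 passed the test.

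The 9 genes of actin, myosin, troponin and tropomyosin proteins, which build the contractile filaments of muscle, included the most abundant members. They encode an alpha-actin of muscle (actc1b), alpha-tropomyosin (tpma), fast troponin I (TNNI2, ENSDARG00000029069), myosin light chains (MYL1, ENSDARG00000014196, and MYL11, myl10 and myl13), a myosin-binding protein (mybphb) and a further actin (acte1). Their close copies in the genome make single genes uncertain, and several genes of the files bear the symbol TNNI2 or MYL1. actc1b had 8261, 14460.4 and 22929 CPM in Amp+Beclo, 13295, 34427 and 42371 CPM in Amp, 13038, 15898 and 15978 CPM in Beclo and 6532, 6989 and 18029 CPM in Control. TNNI2 had 829, 1364 and 1751 CPM in Amp+Beclo, 1375, 5196 and 4149.6 CPM in Amp, 1469.8, 1524 and 1384 CPM in Beclo and 623, 753 and 1871 CPM in Control, and tpma had 1804, 3319.5 and 5135 CPM in Amp+Beclo, against 2732, 6058 and 10893 CPM in Amp. In none of the 9 genes did the 3 Amp+Beclo libraries all lie below the 3 Amp libraries. Nor did the 3 Amp libraries all lie above the 3 Control libraries in any of them, with replicate 1 of Amp low and replicate 3 of Control high. Of all genes, 7.06% and 4.02% do so, and a count of none among 9 is near these shares. Compared within replicates, 8 of the 9 genes were lower in Amp+Beclo than in Amp every time, where 13.1% of all genes were. Over the 9 genes the medians were -0.74, -0.70 and -1.17 log2 in replicates 1, 2 and 3. The rule chose the 9 genes on these libraries. acte1, at 2.17, 17.2 and 18.1 CPM in Amp+Beclo, against 9.86, 9.28 and 71.1 CPM in Amp, was higher in Amp+Beclo in replicate 2. Of the others, MYL11 averaged 5964 CPM over the 12 libraries, MYL1 1666 CPM, mybphb 1104 CPM, myl13 448 CPM and myl10 307 CPM, and each was highest in replicate 3 of Amp. The summed level of the 9 genes was 15313, 27676 and 41441 CPM in Amp+Beclo, 24956, 58041 and 83637 CPM in Amp, 23873, 30392 and 30436 CPM in Beclo and 11779, 12331 and 35747 CPM in Control.

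These genes moved with the other markers of skeletal muscle in part. The sum of 23 muscle markers that are not members was 17769, 41607 and 58747 CPM in Amp+Beclo, 31200, 27270 and 96931 CPM in Amp, 26637, 39922 and 35333 CPM in Beclo and 17446, 10659 and 52639 CPM in Control. In replicates 1 and 3 this sum was lower in Amp+Beclo than in Amp, as that of the 9 members was. In replicate 2 it was higher in Amp+Beclo, with 18 of the 23 markers above Amp. Over the 23 markers, Amp+Beclo minus Amp in replicate 2 ranged from -1.52 to 2.44 log2 with a median of 0.67, beside -1.25 for actc1b and -1.93 for the member TNNI2 (ENSDARG00000029069), 2 genes chosen for such values. In the same replicate Amp minus Control was above 0 for 21 of the 23, as for all 9 members, with a range of -0.75 to 2.68 and a median of 1.15. Of the 24 muscle markers outside the set that were tested in Amp against Control, 3 rose, namely pvalb3, pvalb4 and ckma, where 1.14% of all genes tested rose, and the member TNNI2 (ENSDARG00000029069), chosen for its rise, passed as well. None passed the test in Amp+Beclo against Amp, where 0.299% of all genes tested passed. The count of markers that rose in Amp, with members, was 13 without replicate 1 and 0 without replicate 2 or 3. Over all genes, 910 of 20322 rose without replicate 1, 53 of 21486 without replicate 2 and 2 of 21309 without replicate 3. The part of muscle RNA among the sorted cells in the level of these members was not tested.

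**Figure D4:**
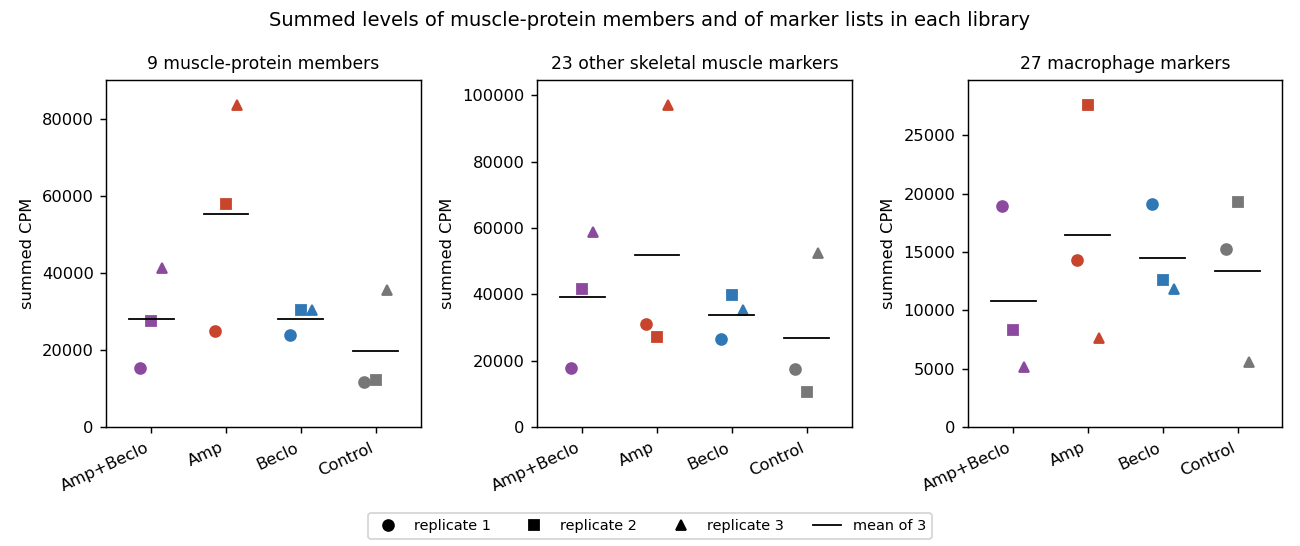
Summed CPM in each library of the 9 muscle-protein members (left), of the 23 other skeletal muscle markers (middle) and of 27 macrophage markers (right), by group Amp+Beclo, Amp, Beclo and Control, with symbols for the replicate and lines for the mean of 3. The muscle sums are highest in replicate 3 of Amp, and the macrophage sum in replicate 2 of Amp, at 27548 CPM.

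The summed level of the macrophage markers differed between the libraries as well. Their sum was 18928, 8343 and 5157 CPM in Amp+Beclo, 14293, 27548 and 7612 CPM in Amp, 19119, 12623 and 11855 CPM in Beclo and 15258, 19272 and 5559 CPM in Control. Between Amp+Beclo and Amp the sum was thus higher in replicate 1 and lower in replicates 2 and 3, and the median log2 difference of the 27 markers was 0.32, -0.97 and -0.80. The 30 members outside the muscle-protein group had medians of -0.52, -1.69 and -1.47 in the same replicates, values that chose them. Between Amp and Control the median of the macrophage markers was -0.20, -0.33 and 0.26. The neutrophil markers summed to 782, 603 and 431 CPM in Amp+Beclo, against 525, 1299 and 318 CPM in Amp. The part of cell composition in the levels of the members was not tested.

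Of the members without a descriptive name, si:dkey-6n3.3 and si:dkey-119g10.4 were among the largest in both steps. si:dkey-6n3.3 had 6.69, 5.41 and 1.82 CPM in Amp+Beclo, 14.7, 33.4 and 12.4 CPM in Amp, 9.42, 4.61 and 6.36 CPM in Beclo and 3.28, 5.84 and 2.69 CPM in Control, and no Amp+Beclo library was as high as the lowest Amp library. It kept 5.37% of its rise. si:dkey-119g10.4 had 9.02, 6.39 and 2.46 CPM in Amp+Beclo, 12.1, 33.7 and 18.1 CPM in Amp, 9.27, 4.94 and 4.54 CPM in Beclo and 2.72, 4.81 and 2.12 CPM in Control, also without overlap. si:dkey-119g10.3, whose name places it on the same clone, had a rise of 1.01 log2 in its lowest replicate, among the smallest, and a level of 7.01, 3.83 and 2.82 CPM in Amp+Beclo, against 9.41, 14.3 and 5.75 CPM in Amp. si:ch73-56d11.3 was the rarest member, at 0.564, 0.393 and 0.182 CPM in Amp+Beclo, against 1.36, 2.90 and 2.45 CPM in Amp, with a lowest count of 2, and zgc:112285 had 1.77, 1.87 and 1.46 CPM in Amp+Beclo, against 4.42, 5.68 and 2.69 CPM in Amp. ENSDARG00000033587 was abundant, with 163, 142 and 89.2 CPM in Amp+Beclo, 143, 815 and 273 CPM in Amp, 112, 74.0 and 69.1 CPM in Beclo and 57.7, 164 and 32.2 CPM in Control. Its replicate 1 did not fall under beclomethasone. ENSDARG00000101809 had 47.9, 116 and 163 CPM in Amp+Beclo, against 82.5, 121 and 353 CPM in Amp and lay nearest to the limit, with 49.9% of its rise kept.

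The last 4 named genes had low levels. USP28, the gene of a deubiquitinating enzyme, had 5.16, 12 and 16.0 CPM in Amp+Beclo, against 13.8, 17.4 and 46.4 CPM in Amp, and its mean log2 level in Amp+Beclo was below that of Control. ZNHIT3, a zinc finger protein gene, had 3.79, 1.18 and 0.82 CPM in Amp+Beclo, against 3.57, 8.70 and 3.79 CPM in Amp. S100A1, which encodes a calcium-binding protein known from muscle, had 3.71, 1.38 and 0.637 CPM in Amp+Beclo, against 2.21, 4.52 and 2.33 CPM in Amp, and ASB16 had 1.29, 1.77 and 3.92 CPM in Amp+Beclo, against 2.27, 3.13 and 6.61 CPM in Amp. In ZNHIT3 and S100A1 replicate 1 of Amp+Beclo was at or above that of Amp, whereas replicates 2 and 3 were lower.

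The limits of the rule fell within continuous values. Just inside the limit of the share kept were CTH (48.9%), S100A1 (49.0%) and ENSDARG00000101809 (49.9%). Just outside it were the muscle creatine kinase gene ckma (51.0%), the hepcidin gene hamp (52.4%) and ckmb (52.7%). The smallest rise over the replicates was 1.01 log2 in si:dkey-119g10.3, CTH and cxcl8a, just inside, and 0.99, 0.99 and 0.98 log2 in SLC16A9, RCC1 and GPI, just outside. cxcl8a therefore belonged to the set by a narrow margin in replicate 2, in which Control had 29.2 CPM.

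The calls of the tests are given as a description, because the same libraries chose the genes. In Amp against Control, 23 of the 39 members passed the threshold (adjusted p below 0.05 by edgeR and a fold change above 2), all higher in Amp, where 1.14% of all genes tested were higher. Without replicate 2 the count was 8, where 66 of 21486 genes passed. It was 0 without replicate 3, where 2 of 21309 genes passed, and 0 without the pairing of replicates, where 0 of 22107 genes passed. In Amp+Beclo against Control 0 of 39 passed, where 0.419% of all genes tested did (0.374% higher and 0.045% lower). Of the 39, 3 had an unadjusted p below 0.05, as 1603 of 22202 genes had, and DESeq2 called 1, ifitm1, of 369 genes in all. Without replicate 2 edgeR called 3 of the 38 members tested, where 664 of 21489 genes passed. In Amp+Beclo against Amp 1 passed, as given for clcnk. Of the 39, 17 had an unadjusted p below 0.05, as 2006 of 21742 genes had, and DESeq2 called 91 genes, with 4 members among them, which were clcnk, si:dkey-6n3.3, csf3b and cxcl8a. The difference between the amputation responses with and without beclomethasone was tested as an interaction over all 12 libraries. No member passed by edgeR, as 0 of 21979 genes did, although 28 of the 39 had an unadjusted p below 0.05, as 2389 of the 21979 had, and DESeq2 called 1 member, si:dkey-6n3.3, of 5 genes in all. The interaction too is made of the values that chose the genes.

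The Beclo libraries show these genes under beclomethasone without a wound. They did not enter the choice, but Control did, so this comparison shares its Control libraries with those that chose the genes. Low Control values favour both the choice and a positive difference here. Over the 39 genes the median of the mean difference between Beclo and Control was 0.61 log2 (0.97, 0.56 and -0.11 in replicates 1, 2 and 3), against -0.03 over all genes. For the 76 other raised genes it was higher, at 1.00 log2. The mean lay below 0 for 8 members (20.5%) and above 0 for 31. Below 0 were 52.2% of all genes and 13.2% of the 76 other raised genes. None of the 39 passed the test in Beclo against Control, where 0.172% of all genes tested did (0.167% higher and 0.00452% lower), 7 had an unadjusted p below 0.05, as 1159 of 22127 genes had, and DESeq2 called 1, clcnk, of 241 genes in all. Without replicate 1 the median of the 39 genes was 0.29. By role, the medians were -0.30 for the 5 secreted signals and hormones, 0.33 for the 5 immune membrane proteins, 0.10 for the 4 genes of the endosome, lysosome and secretory path, 1.18 for the 5 enzymes and channels and 0.78 for the 9 muscle-protein genes. They were 0.24 for the 4 other named genes and 0.63 for the 7 with no descriptive name. The medians of the secreted group were 0.30, -1.47 and -0.50 in replicates 1, 2 and 3, each the value of HBEGF. Its other genes varied, with 2.78, -0.42 and -1.84 for pyya and -1.35, 1.58 and -0.16 for SST. csf3b had 0.71, -2.19 and 0.58, and cxcl8a had -0.35, -2.39 and -1.14. Only the enzymes and channels and the genes with no descriptive name had medians of the same sign in all 3 replicates. These differences between groups were not tested.

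cxcl8a was the 1 member that was lower in Beclo than in Control in all 3 replicates, and its Beclo libraries, at 6.04, 5.45 and 6.36 CPM, all lay below its Control libraries, at 7.73, 29.2 and 14.2 CPM. Over all genes 12.3% were lower in all 3 replicates, and 4.23% show such a separation. The fitted log2 fold change was -1.30 (SE 0.46), and it did not pass the test (adjusted p = 0.73 by edgeR). csf3b and HBEGF had no such uniform direction. Beclo minus Control was 0.71, -2.19 and 0.58 log2 for csf3b and 0.30, -1.47 and -0.50 log2 for HBEGF in replicates 1, 2 and 3. The spread of csf3b was narrow in Beclo, with 22.2, 21.5 and 25.9 CPM, and wide in Control, with 13.5, 98.2 and 17.3 CPM. At the other end, clcnk, zgc:112285, ZNHIT3 and si:dkey-119g10.3 had all 3 Beclo libraries above all 3 Control libraries, as 5.67% of all genes do. clcnk had a log2 fold change of 3.28 (SE 0.62, adjusted p = 0.062 by edgeR), CYP24A1 of 1.23 (SE 0.43, adjusted p = 0.70) and myl13 of 1.03 (SE 0.40, adjusted p = 0.82), and none passed the test. clcnk did pass with RLE normalization, with no filter on low counts, by DESeq2 and, at 4.03, without replicate 3. The muscle-protein genes were higher in Beclo than in Control in replicates 1 and 2, with medians of 1.18 and 1.39 log2, and at -0.26 in replicate 3. The 27 skeletal muscle markers, some of which are members, had medians of 0.72, 1.76 and -0.48. Of the 23 markers that are not members, 21, 23 and 0 were above Control in replicates 1, 2 and 3.

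**Figure D5:**
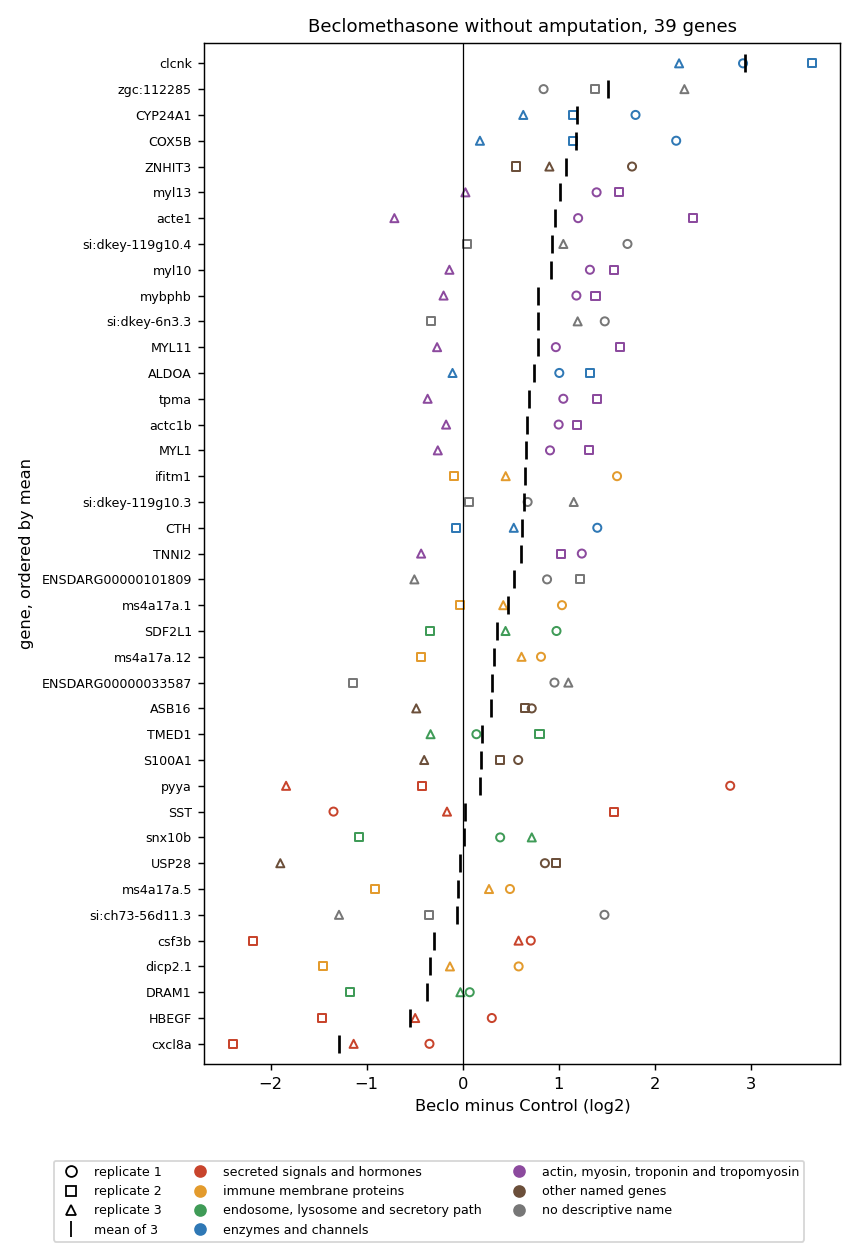
Difference between Beclo and Control (log2, horizontal axis) for each of the 39 genes (rows, ordered by the mean), with a symbol for each of the 3 replicates coloured by role and a bar for the mean. The vertical line marks 0. cxcl8a at the bottom is below 0 in all 3 replicates, and 8 genes (20.5%) are above 0 in all 3. Of all genes 12.3% are above 0 in all 3, and of the 76 other raised genes 47.4%. The muscle-protein genes are above 0 in replicates 1 and 2 and mostly below it in replicate 3.

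Set against Beclo in place of Control, Amp+Beclo gives the difference after amputation while beclomethasone was present. The rule picked the members for a low mean in Amp+Beclo, which favours low values here, so the comparison is a description. For the 76 other raised genes, which the rule did not find dampened, the median was 0.99 log2. Of these 76, 60.5% were above Beclo in all 3 replicates and 1.32% below it. The median over the 39 genes was -0.12 log2, against 0.01 over all genes, and it was -0.47, 0.20 and 0.30 in replicates 1, 2 and 3, so that its sign differed between replicates. In all 3 replicates 7 of the 39 (17.9%) were above Beclo and 5 (12.8%) below it, where 17.4% and 18.5% of all genes were. The first share was thus near that of all genes and the second was smaller. The 7 were csf3b, dicp2.1, HBEGF, snx10b, DRAM1, S100A1 and ENSDARG00000033587. csf3b was higher in Amp+Beclo by 1.17, 1.60 and 0.44 log2 in replicates 1, 2 and 3 and DRAM1 by 1.05, 1.07 and 0.69 log2. cxcl8a averaged 0.95 log2 higher in Amp+Beclo, but replicate 3 was at -0.06. No member passed the test in this comparison, where 0.0046% of all genes tested did, although 9 had an unadjusted p below 0.05, as 2017 of 21727 genes had, and DESeq2 called 2, csf3b (higher) and clcnk (lower), of 109 genes in all.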

How the data were processed

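RNA of sorted macrophages was sequenced (SMART-Seq v4, reads of 50 nt) in 12 samples, 3 replicate experiments of Amp+Beclo, Amp, Beclo and Control. The deposited values are raw counts per gene, 1 file per sample, made by the authors. The submitters' processing notes name TopHat2 2.1.0, genome build GRCz10 and DESeq 1.26.0; the counting program is not given in the sources used here. Lines that name no gene were left out (outside genes 4.72% to 12.6%, ambiguous 1.64% to 2.46% of reads). Gene symbols matched 26121 of 31962 IDs, and 1151 of 1245 list entries were found. Gene names do not always separate close copies.

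Counts were scaled by TMM in edgeR 4.0.16 (R 4.3.3). log2 CPM used a prior count of 2. Each comparison of 2 groups was fitted with edgeR's quasi-likelihood test blocked on the replicate experiment, following the study's use of paired tests, on genes with at least 30 counts over 6 samples (60 over 12 samples for the interaction). A call needed an adjusted p (Benjamini-Hochberg over all genes tested) below 0.05 and a fold change above 2, or the adjusted p alone in Amp+Beclo against Amp and in the interaction. Same-numbered Amp and Control samples deviated together (correlations of their deviations from the group means 0.50, 0.54 and 0.68). In the other 4 comparisons the mean correlation was 0.03 to 0.14, and single replicates differed in sign. In replicates 1, 2 and 3 the values were 0.24, -0.42 and 0.49 for Amp+Beclo against Control. For Amp+Beclo against Amp they were 0.12, -0.19 and 0.26. No 2 libraries were duplicates. The labels number the replicates, and the study describes 3 replicate experiments, so p-values measure the spread between these.

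The members, lists and tests were chosen with earlier results of these data known. Genes named by rule were members in a function or marker list, the 10 with the largest rise, the 10 with the most negative difference between Amp+Beclo and Amp, the 10 with the highest level, any called in Beclo against Control, and 3 genes on each side of each limit. The other members were named after their values were seen. Alternatives were no block, DESeq2 1.42.0, RLE normalization, other count filters, 1 fit of 12 samples, other settings of the rule and leaving out each replicate. The fits were tested on simulated data first.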

Additional observations from a re-analysis of the deposited data

Results flagged for a closer look

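For 5 of the 39 genes, Amp+Beclo was lower than Beclo in all 3 replicates although Amp was higher than Control in all 3. The second direction was fixed by the choice of the genes. The first was favoured by it, since the members were picked for a low mean in Amp+Beclo. In Amp+Beclo against Beclo, 12.8% of members were lower in all 3 replicates, against 18.5% of all genes. The mean difference between Amp+Beclo and Beclo was -2.91 log2 for clcnk, -0.97 for ZNHIT3, -0.96 for zgc:112285, -0.50 for si:ch73-56d11.3 and -0.30 for ms4a17a.1. In clcnk the replicate differences were -3.45, -0.40 and -4.88 log2, on 1, 30 and 2 reads in Amp+Beclo. In the test of Amp+Beclo against Beclo none of these genes passed by edgeR (adjusted p = 0.53 for clcnk), and DESeq2 called clcnk lower. In the test of the difference between both responses (the interaction over 12 libraries, edgeR), none of the 39 genes passed, and the lowest adjusted p of a member was 0.45.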

How the results depend on the processing

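Without the replicate block, 0 members were called in Amp against Control, against 23 with it, and 0 against 1 in Amp+Beclo against Amp. Over all genes these counts were 0 without the block against 543 with it, and 2 against 65. For the members the same counts, 0 and 0, came from 1 fit of all 12 samples, with 7 and 26 over all genes. The block changed the count of members in no other comparison. DESeq2 called 1 member in Amp+Beclo against Control, 4 in Amp+Beclo against Amp, 1 in Beclo against Control, 2 in Amp+Beclo against Beclo and 1 in the interaction. With no filter on low counts, 1 was called in Amp+Beclo against Control and 1 in Beclo against Control, with RLE normalization 1 in Beclo against Control, and with at least 10 counts in every sample 0 in Amp+Beclo against Amp. Leaving out 1 replicate gave 0 to 29 members in Amp against Control, 0 to 3 in Amp+Beclo against Control, 0 to 1 in Amp+Beclo against Amp and 0 to 1 in Beclo against Control. Over all genes the counts in these 4 comparisons were 2 to 1508, 35 to 664, 1 to 13 and 3 to 140. The fewer samples or genes in these fits aside, the cause was not tested.

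The rule itself gave 19 genes, all among the 39, where a mean count of at least 50 was required. The scaling was computed again on the genes left there, and members with a higher mean count than 50 dropped out as well. The rule gave 12 where each replicate had to keep less than 50% of its rise. With Amp+Beclo set against Beclo it gave 80, of which 35 were among the 39. With RLE normalization it gave 50, which held all 39. Without replicate 1 it gave 958, of which 36 were among the 39. Without replicate 2 it gave 57, with 30 of the 39, and without replicate 3 it gave 86, with 29 of the 39. Library sizes taken from all genes, an alternative chosen after seeing the data, gave 39. Without 1 replicate, the median over the members was -1.34 to -0.97 log2 for Amp+Beclo minus Amp, 0.32 to 0.63 for Amp+Beclo minus Control (lowest without replicate 2) and 0.29 to 0.75 for Beclo minus Control (lowest without replicate 1). The median fitted log2 fold change of the members in Amp+Beclo against Beclo, -0.06, changed sign, to 0.02 without the block and 0.18 without replicate 1. Of 70 fold changes of single members under alternatives, 59 stayed on their side of the threshold, 7 passed it and 4 no longer did. Of 90 counts over gene lists 36 moved by more than 1.5 times. Counts of 12 members averaged under 5 CPM, and 6 had a library under 10 counts, which limits their folds. Promoter motifs were not run.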
